A study of Homo sapiens with 8 samples.

Results

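The genes described here are Fc receptors of myeloid cells, which bind the constant part of antibodies, together with the inhibitory receptor CD300A. They were selected by name, 7 genes in all: FCGR2B, FCGR2A, FCGR1A, FCER1G, FCAR, FCGRT and CD300A. On the array, 18132 genes had a probe set of their own. The selection was proposed because FCGR2B stood far above the scramble level in earlier results of these data, so its own change against scramble is given as a description and not tested. Only probe sets that the annotation pairs with exactly 1 gene were used, and the brightest of them, by its mean over the 8 arrays, stood for the gene. Of the 7 genes, 6 had such a probe set, and 5 of those passed the filter on low values that left 12845 genes for testing. FCAR fell below the filter, and FCGR2A had no probe set of its own because all 6 of its probe sets also name FCGR2C.

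RNA came from NB4, a line of human acute promyelocytic leukaemia, after transduction with lentivirus. The groups were a scrambled control (scramble) and 3 hairpins against the kinase CDK2 (shCDK2 #1, #3 and #10), each taken after 2 days, labelled an early stage of differentiation, and after 5 days, labelled a late one. There were 8 Affymetrix arrays, 1 per construct and day, so no construct had a replicate within a day. No untransduced cells were among the groups, so every array carried a vector, and all cells belong to 1 line. The labels do not say whether the 2 days of a construct came from separate cultures, and the p-values below measure only the spread between these arrays.

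Fc gamma receptors bind IgG on immune cells. FCGR1A (CD64), the high-affinity receptor, signals through FCER1G, the common Fc receptor gamma chain, which carries an activating motif known as ITAM; FCGR2A has an ITAM-type motif in its own tail, and FCAR, the IgA receptor, also pairs with FCER1G. FCGR2B (CD32B) is the inhibitory Fc gamma receptor. Its tail carries an inhibitory motif (ITIM) that recruits phosphatases such as SHIP1, encoded by INPP5D, and so restrains signals from activating receptors on the same cell. CD300A is an ITIM receptor for phospholipids and is not an Fc receptor. FCGRT is the heavy chain of the neonatal Fc receptor, which pairs with beta-2-microglobulin and carries IgG through endosomes rather than signalling.

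Before the results, some arrays need a remark, since the RNA of CDK2 itself did not separate hairpin from scramble in them. On its brightest probe set the array labelled shCDK2 #3 at day 2 read 9.03 log2, next to 9.10 for scramble of that day. The array labelled scramble at day 5 read 8.19, little above the 7.54 to 8.08 of the other 5 hairpin arrays. The 8.08 was shCDK2 #10 at day 5, a change of -0.11 from that scramble array, and -0.04 on the second brightest probe set. On the dimmest, scramble read 7.51 at day 2 and 7.53 at day 5. The hairpin arrays read 7.03 to 7.62 there, the highest being shCDK2 #3 at day 2. Whether any label is wrong was not tested. The fitted changes of the tested genes and of FCGR2B in shCDK2 #10 and #3 are given below also without shCDK2 #3 at day 2 or scramble at day 5, where these bear on them. Without its day 5 array, the shCDK2 #10 change was 5.16 for FCGR2B, 3.48 for CD300A, 2.24 for FCER1G, 1.52 for FCGR1A and 0.47 for FCGRT. MPO, the promyelocyte granule enzyme, read 13.37 to 14.39 log2 over the arrays, while ELANE, another granule enzyme, read 5.83 to 6.35, about the filter value. The mean of the 5 promyelocyte markers with a probe set was 9.55 and 9.32 in shCDK2 #10 at day 2 and day 5, the lowest of each day, against 9.57 to 10.17 in the other 6 arrays. The single markers differed. PRTN3 was the lowest of each day there (9.99 and 9.76), but AZU1 was the highest of all 8 arrays at day 2 (10.50) and the lowest at day 5 (8.39). MPO, ELANE and CTSG were lowest there at day 2. At day 5 they read 14.09, 6.31 and 8.04, near the 14.15, 6.35 and 7.97 of the array labelled scramble. The B cell marker MS4A1 lay between 4.03 and 4.67, although PAX5, another B cell marker, read 10.03 to 10.51. Monocyte markers moved with the receptors in part. The mean over the 5 of 6 with a probe set was 4.97 to 5.26 log2 in 6 arrays, against 6.48 in shCDK2 #3 and 7.62 in shCDK2 #10 at day 5. CD14, a monocyte marker, read 5.15 to 5.76 in those 6 arrays, 8.43 in shCDK2 #3 at day 5 and 10.65 in shCDK2 #10 at day 5. CD163, a scavenger receptor of macrophages, read 4.57 to 4.88, then 7.92 and 10.27 in the same order. MRC1 and VCAN stayed at 3.51 to 4.67 throughout. The mean of B cell markers lay between 7.17 and 7.54, that of NK and T cell markers between 6.28 and 6.58, and that of mast cell and basophil markers between 6.06 and 6.50, with FCER1A, KIT and CPA3 at 3.81 to 5.08. HDC, the histamine-forming enzyme and the remaining marker of that list, read 10.98 to 11.47 in the scramble and shCDK2 #1 arrays and 12.19 to 13.06 in the 4 shCDK2 #3 and #10 arrays, as FCGR2B was higher there. The part of monocyte, promyelocyte and mast cell markers in the results below was not tested, and in RNA from whole cultures more cells of a type and more RNA per cell cannot be told apart.

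The regulatory sequence beside FCGR2B, CD300A and the activating Fc receptors is shown, since factors of the interferon pathway and PU.1 are known regulators of myeloid Fc receptors. The 250 bases before each start were taken from RefSeq (GRCh38.p14, plus strand for all), which held 8 starts for 6 of the 7 genes, FCAR not among them. Capitals mark matches to the interferon-gamma activated site (TTCNNNGAA, its own reverse complement), the interferon-stimulated element (GAAANNGAAA or TTTCNNTTTC) or the PU.1 box (GAGGAA or TTCCTC). FCGR2B has 2 starts, both shown, the first at chr1:161646993-161647242 and the second at chr1:161662893-161663142. Of 2 nearby starts of CD300A the first is shown, at chr17:74466123-74466372. FCGR1A is at chr1:149782444-149782693, FCGR2A at chr1:161505207-161505456 and FCER1G at chr1:161215045-161215294.
FCGR2B, first start: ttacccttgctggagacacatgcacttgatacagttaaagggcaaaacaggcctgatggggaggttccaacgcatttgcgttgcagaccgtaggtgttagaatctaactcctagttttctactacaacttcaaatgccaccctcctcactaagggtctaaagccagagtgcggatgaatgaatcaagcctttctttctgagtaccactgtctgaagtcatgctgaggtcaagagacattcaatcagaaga
FCGR2B, second start: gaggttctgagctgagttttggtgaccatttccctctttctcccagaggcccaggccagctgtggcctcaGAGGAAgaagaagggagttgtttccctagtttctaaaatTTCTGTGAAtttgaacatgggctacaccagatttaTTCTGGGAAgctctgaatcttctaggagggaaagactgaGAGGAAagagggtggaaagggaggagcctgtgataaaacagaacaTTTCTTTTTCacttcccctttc
FCGR1A: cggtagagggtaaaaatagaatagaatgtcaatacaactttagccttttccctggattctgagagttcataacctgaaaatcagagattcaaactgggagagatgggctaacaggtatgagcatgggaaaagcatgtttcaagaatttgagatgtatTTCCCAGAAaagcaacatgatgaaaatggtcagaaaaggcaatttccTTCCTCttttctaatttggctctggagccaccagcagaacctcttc
FCGR2A: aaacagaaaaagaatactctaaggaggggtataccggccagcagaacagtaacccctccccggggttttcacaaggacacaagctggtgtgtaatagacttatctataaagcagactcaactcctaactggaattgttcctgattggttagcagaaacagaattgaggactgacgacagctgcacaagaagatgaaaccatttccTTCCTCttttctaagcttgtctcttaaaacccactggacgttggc
FCER1G: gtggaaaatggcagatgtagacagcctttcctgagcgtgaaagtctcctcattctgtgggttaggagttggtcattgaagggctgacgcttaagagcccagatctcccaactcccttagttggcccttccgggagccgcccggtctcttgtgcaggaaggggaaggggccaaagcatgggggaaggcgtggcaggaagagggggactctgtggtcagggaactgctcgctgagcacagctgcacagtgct
CD300A: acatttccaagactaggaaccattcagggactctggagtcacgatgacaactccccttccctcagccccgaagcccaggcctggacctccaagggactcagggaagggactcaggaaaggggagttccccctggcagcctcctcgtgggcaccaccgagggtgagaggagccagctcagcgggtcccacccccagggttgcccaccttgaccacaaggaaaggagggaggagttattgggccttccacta
Counted from the start, the window of the second FCGR2B start held the interferon-gamma activated site at -141 to -133 and at -106 to -98, the interferon-stimulated element at -22 to -13, and PU.1 boxes at -180 to -175 and -67 to -62. FCGR1A held 1 interferon-gamma activated site at -93 to -85 and 1 PU.1 box at -46 to -41, and FCGR2A 1 PU.1 box at -45 to -40. The longest stretch that the FCGR1A and FCGR2A windows share was 20 bases, starting at -52 and -51 and spanning the PU.1 box in both.
Shared stretch: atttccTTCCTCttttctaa
None of the 3 motifs was in the windows of FCER1G, CD300A (2 starts), FCGRT or the first FCGR2B start. Over all 35116 windows of the table, the interferon-gamma activated site stood in 6.57%, the interferon-stimulated element in 3.02% and the PU.1 box in 23.6%. A match is only a match of letters, and the arrays do not measure binding.

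FCGR2B, the inhibitory receptor, was low in scramble and shCDK2 #1 and high in shCDK2 #10 at both days. At day 2 scramble read 5.93 log2, shCDK2 #1 6.34, the array labelled shCDK2 #3 8.24 and shCDK2 #10 10.74. By day 5 the array labelled scramble read 6.12 and the others read 6.21 in shCDK2 #1, 10.84 in shCDK2 #3 and 12.07 in shCDK2 #10. The 4 scramble and shCDK2 #1 arrays lay close to the filter value of 5.83 log2, and every shCDK2 #3 and #10 array lay above all 4 of them. Against the scramble array of the same day, the log2 change at day 2 and day 5 was 4.81 and 5.95 in shCDK2 #10, 2.31 and 4.72 in shCDK2 #3, and 0.41 and 0.09 in shCDK2 #1. The fitted change over both days was 5.38 (SE 0.58) for shCDK2 #10, 3.52 for shCDK2 #3 and 0.25 for shCDK2 #1, each with 2 arrays. Without the array labelled shCDK2 #3 at day 2, the value for that hairpin was 4.59. Without the array labelled scramble at day 5, it was 4.84 for shCDK2 #10 and 2.98 for shCDK2 #3. The fitted change of CDK2 itself was -0.83 for shCDK2 #10, -0.27 for shCDK2 #3 and -0.81 for shCDK2 #1. None of these had a limma adjusted p under 0.05. For shCDK2 #10 against shCDK2 #1 the fitted change was 5.13 for FCGR2B and -0.02 for CDK2. Whether the receptors follow CDK2 RNA was not tested.

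The 4 FCGR2B probe sets gave the same order of constructs but not the same size of change. The second brightest read 5.42 in scramble, 6.04 in shCDK2 #1, 7.94 in the array labelled shCDK2 #3 and 10.56 in shCDK2 #10 at day 2. Its day 5 values, in the same order, were 5.58, 5.89, 11.19 and 12.48. The third read 5.51, 6.08, 7.73 and 10.40 at day 2 and 5.72, 5.93, 10.41 and 11.73 at day 5. 
At these 3 probe sets the shCDK2 #10 change against the same-day scramble array ran from 4.81 to 6.91 log2. The dimmest probe set read 5.47, 5.58, 5.82 and 7.16 at day 2 and 5.58, 5.67, 7.55 and 7.57 at day 5, and its shCDK2 #10 changes were 1.69 and 1.99. The mean of the 4 probe sets gave a fitted shCDK2 #10 change of 4.67. FCGR2C, a neighbouring gene that arose from FCGR2A and FCGR2B, is nearly identical to FCGR2B over part of its length, so a share of FCGR2C transcript in these signals cannot be told apart.

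**Figure D1:**
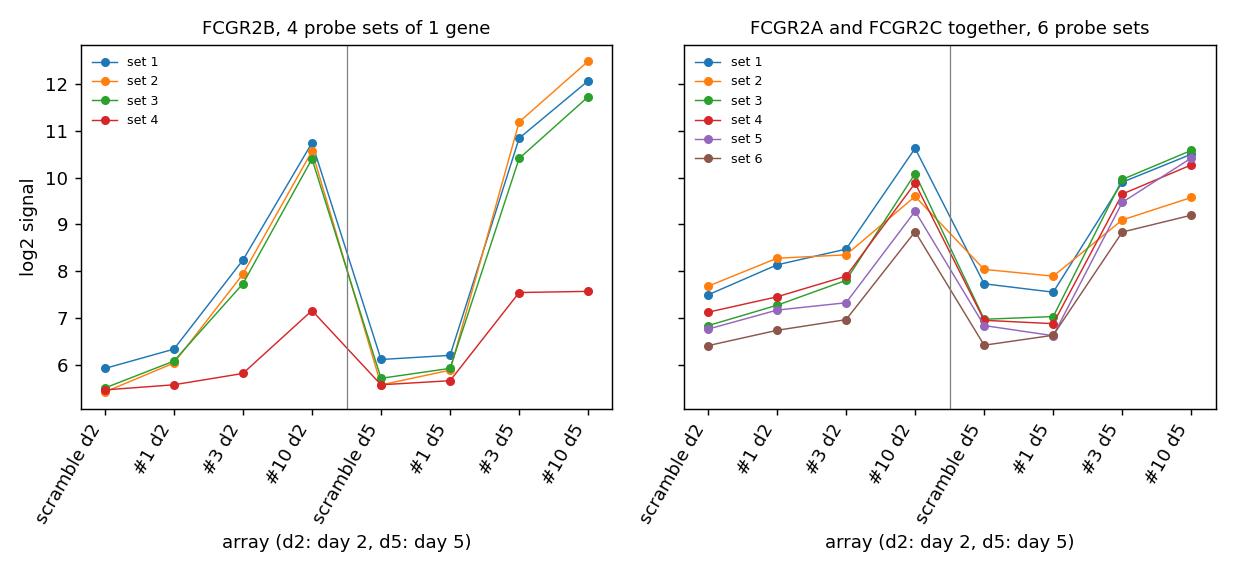
Log2 signal (vertical axis) of the 4 probe sets of FCGR2B and of the 6 probe sets that name FCGR2A and FCGR2C together, in the 8 arrays (horizontal axis, day 2 left and day 5 right of the grey line). Each point is 1 probe set in 1 array and lines join the points of a probe set. In every probe set of both panels the shCDK2 #10 array was the highest of its day.

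CD300A, the other inhibitory receptor, was also higher in shCDK2 #10. At day 2 scramble read 7.77 log2, shCDK2 #1 8.78, the array labelled shCDK2 #3 9.58 and shCDK2 #10 11.38. The day 5 signal was 8.44 in the array labelled scramble, 8.41 in shCDK2 #1, 10.45 in shCDK2 #3 and 10.53 in shCDK2 #10. The lowest shCDK2 #3 or #10 array was above the highest scramble or shCDK2 #1 array, and both shCDK2 #10 arrays were above all 6 others. The fitted change for shCDK2 #10 was 2.85 log2 (SE 0.40, 95% interval 1.91 to 3.79), which passed at an adjusted p of 0.026 in limma. The change was higher at day 2 (3.61) than at day 5 (2.09), the reverse of FCGR2B. For shCDK2 #3 the fitted change was 1.91 (SE 0.40, limma adjusted p 0.229) and for shCDK2 #1 it was 0.49 (limma adjusted p 1.00). The shCDK2 #10 call was lost without the array labelled scramble at day 5, where the change was 3.24 and the limma adjusted p 0.187. It was also lost without scramble at day 2, where the change was 2.46 and the limma adjusted p 0.248. The shCDK2 #3 change was 2.44 (limma adjusted p 0.0695) without its day 2 array, and 2.30 (limma adjusted p 0.723) when the array labelled scramble at day 5 was left out.

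FCER1G, the gamma chain that activating receptors share, rose in shCDK2 #10. At day 2 its signal was 8.48 log2 in scramble, 9.04 in shCDK2 #1, 8.97 in the array labelled shCDK2 #3 and 10.58 in shCDK2 #10. Day 5 gave 8.62 in the array labelled scramble, 8.46 in shCDK2 #1, 10.69 in shCDK2 #3 and 12.19 in shCDK2 #10. At day 2 the array labelled shCDK2 #3 was below shCDK2 #1, while at day 5 shCDK2 #3 and #10 stood clear of the rest. The fitted change for shCDK2 #10 was 2.83 log2 (SE 0.53, 95% interval 1.60 to 4.07), with a limma adjusted p of 0.047. For shCDK2 #3 it was 1.28 (limma adjusted p 0.522), or 1.94 (limma adjusted p 0.127) without its day 2 array and 0.89 (limma adjusted p 0.991) leaving out the array labelled scramble at day 5. It was 0.20 for shCDK2 #1 (limma adjusted p 1.00). The shCDK2 #10 call was lost without either scramble array: the change was 2.44 (limma adjusted p 0.242) without the array labelled scramble at day 5 and 3.22 (limma adjusted p 0.264) without scramble at day 2. It was also lost without shCDK2 #10 at day 5 (2.24, limma adjusted p 0.083), after centring each array on its median (2.86, limma adjusted p 0.077), and with every probe set as its own feature (2.83, limma adjusted p 0.055).

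FCGR1A, the high-affinity activating receptor, did not pass. At day 2 its signal was 8.32 log2 in scramble, 8.19 in shCDK2 #1, 8.29 in the array labelled shCDK2 #3 and 9.61 in shCDK2 #10. Day 5 gave 8.39 in the array labelled scramble, 8.10 in shCDK2 #1, 9.88 in shCDK2 #3 and 10.06 in shCDK2 #10. The shCDK2 #10 arrays and shCDK2 #3 at day 5 were above the other 5, and the array labelled shCDK2 #3 at day 2 was level with scramble. The fitted shCDK2 #10 change was 1.48 log2 (SE 0.38, 95% interval 0.60 to 2.37, limma adjusted p 0.088). Without shCDK2 #3 in the fit, or without either of its arrays, the same 1.48 had a limma adjusted p of 0.016. It stayed short of the threshold without scramble at day 2 (1.78, limma adjusted p 0.338), leaving out the array labelled scramble at day 5 (1.19, limma adjusted p 0.364), without shCDK2 #10 at day 2 (1.45, limma adjusted p 0.281) or under median centring (1.51, limma adjusted p 0.124). For shCDK2 #3 the change was 0.73 (limma adjusted p 0.592), or 1.46 (limma adjusted p 0.051) without its day 2 array and 0.44 (limma adjusted p 0.999) leaving out the array labelled scramble at day 5. It was -0.21 for shCDK2 #1 (limma adjusted p 1.00). The other 2 probe sets of FCGR1A read between 2.85 and 3.13 in every array, so they showed no such pattern. FCGR1A has near-identical copies. The probe set of the pseudogene FCGR1BP, named after its values were seen, had a fitted shCDK2 #10 change of 1.33 (limma adjusted p 0.144). A dimmer probe set shared by FCGR1A and FCGR1BP, outside the fit, changed by 0.82 and 0.41 in shCDK2 #10 at day 2 and day 5. It changed by 0.03 and 0.66 in the shCDK2 #3 arrays and by 0.70 and -0.12 in shCDK2 #1.

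FCGR2A, the activating receptor with its own tail motif, can only be read together with FCGR2C. Over their 6 shared probe sets, the median at day 2 was 6.98 log2 in scramble, 7.37 in shCDK2 #1, 7.85 in the array labelled shCDK2 #3 and 9.74 in shCDK2 #10. Day 5 gave 6.97 in the array labelled scramble, 6.96 in shCDK2 #1, 9.56 in shCDK2 #3 and 10.34 in shCDK2 #10. The shCDK2 #10 change of the single probe sets ran from 1.92 to 3.25 at day 2 and from 1.53 to 3.60 at day 5, all positive. Probe sets of several genes were outside the fit, and their changes have no test.

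FCAR, the IgA receptor, was dim and its probe sets disagreed. The brightest of its 7 probe sets read 5.22 to 5.65 log2 in 7 arrays and 5.92 in shCDK2 #10 at day 5. The second read 4.65, 4.93, 4.78 and 6.05 at day 2 for scramble, shCDK2 #1, the array labelled shCDK2 #3 and shCDK2 #10. At day 5 it read 4.33, 4.68, 5.41 and 6.76 in the same order, the first being the array labelled scramble. The third read 3.75, 3.88, 4.18 and 5.29 at day 2 and 3.52, 3.84, 5.49 and 6.49 at day 5. In these dimmer probe sets the shCDK2 #10 array was thus the highest of its day, which the brightest did not show at day 2. All 7 means were under the filter value, so FCAR was not tested.

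FCGRT, the transport receptor, did not pass the test. At day 2 its signal was 8.58 log2 in scramble, 8.70 in shCDK2 #1, 8.31 in the array labelled shCDK2 #3 and 9.01 in shCDK2 #10. Day 5 gave 8.64 in the array labelled scramble, 8.66 in shCDK2 #1, 8.67 in shCDK2 #3 and 8.54 in shCDK2 #10. The shCDK2 #10 arrays were the highest and among the lowest of the 8, and groups overlapped. The fitted shCDK2 #10 change was 0.17 (95% interval -0.36 to 0.69, limma adjusted p 0.752), and 0.22 leaving out the array labelled scramble at day 5. For shCDK2 #3 it was -0.12, or 0.14 without its day 2 array and -0.06 leaving out the array labelled scramble at day 5. Of its 7 probe sets, 3 others had fitted changes of 0.80, 0.91 and 1.11 (limma adjusted p 0.293, 0.307 and 0.238, over 27129 probe sets as features). In these 3, shCDK2 #10 at day 2 and shCDK2 #3 at day 5 read 8.85 to 9.20 and 8.84 to 9.04, against at most 8.23 in shCDK2 #10 at day 5.

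**Figure D2:**
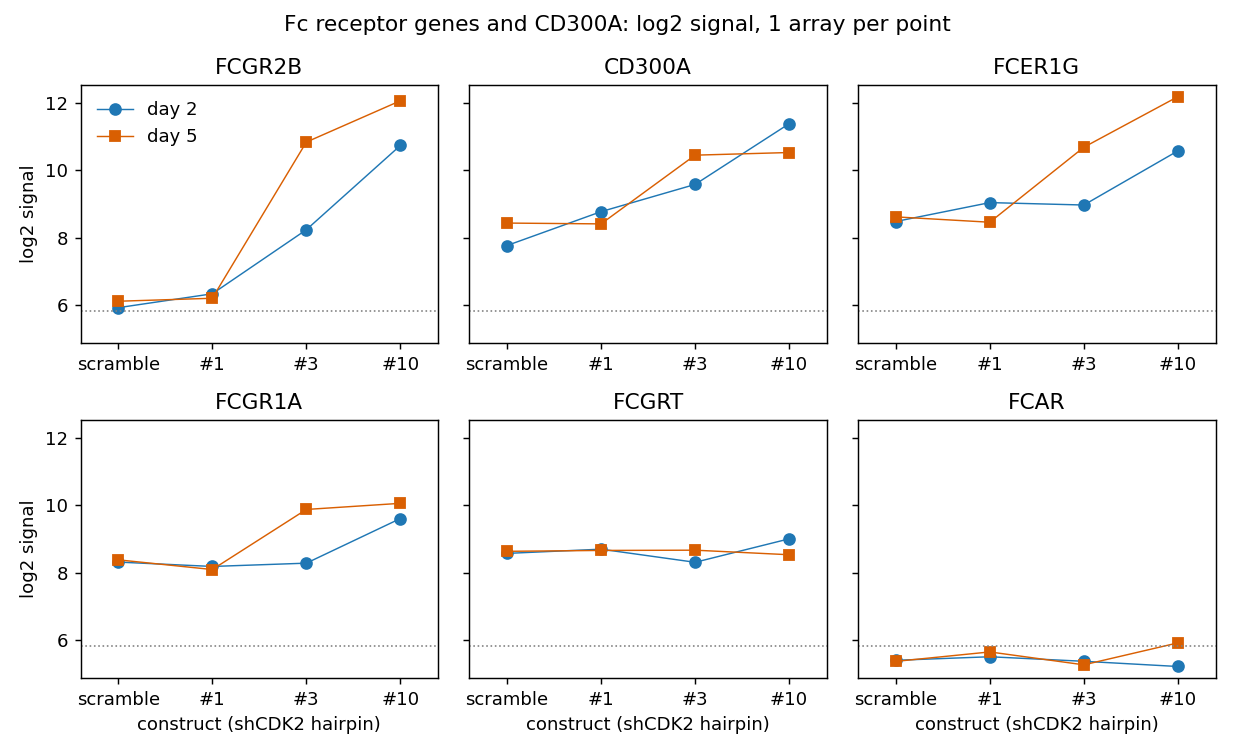
Log2 signal (vertical axis) of 6 genes in the 8 arrays, by construct (horizontal axis), with circles for day 2 and squares for day 5. Each point is 1 array, lines join arrays of a day, and the dotted line is the filter value of 5.83 log2. FCGR2B, CD300A, FCER1G and FCGR1A have both shCDK2 #10 arrays above both scramble arrays.

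Counted over the comparisons, 2 of the 4 tested genes other than FCGR2B, CD300A and FCER1G, were called higher in shCDK2 #10 and none lower. Of all tested genes, 1.69% were called higher there. Such a share over all genes was not worked out for the alternative settings. The count was 0 without either scramble array, 1 under median centring, and it ran from 0 to 3 when arrays or constructs were left out. In shCDK2 #3 the count was 0 (2 at an unadjusted limma p under 0.05), with 0.0311% of all genes called higher and 1216 of 12845 at that unadjusted p. In shCDK2 #1 it was 0 (0 unadjusted), with 0% of all genes called and 171 at that unadjusted p. For shCDK2 #10 against shCDK2 #1 it was 0 (3 unadjusted), with 0.319% of all genes called higher and 2035 of 12845 at that unadjusted p. The changes there were 2.36 for CD300A (limma adjusted p 0.067), 2.63 for FCER1G (limma adjusted p 0.085) and 1.69 for FCGR1A (limma adjusted p 0.103). All 3 passed without shCDK2 #3 in the fit, while none did without scramble in the fit. Leaving out either scramble array gives the same spread as leaving out scramble. It thus does not single out the array labelled scramble at day 5. The genes were chosen with these results known, so the counts are not independent evidence of a direction.

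By position of the arrays alone, 4 of the 5 tested genes had both shCDK2 #10 arrays above both scramble arrays, against 21.2% of all tested genes. They were FCGR2B, FCGR1A, FCER1G and CD300A. For shCDK2 #3 it was 3 of 5, FCGR2B, FCER1G and CD300A, against 15.8% of all tested genes. All 4 arrays of shCDK2 #3 and #10 stood above the 4 scramble and shCDK2 #1 arrays for FCGR2B and CD300A, a pattern that 8.17% of tested genes showed. FCGR2B was part of the selection and its place in these counts is no result. Over the 8 arrays FCGR2B had a Pearson r of 0.953 with FCGR1A, 0.955 with FCER1G, 0.930 with CD300A, 0.172 with FCGRT and 0.122 with FCAR, as a description of arrays that share constructs and days.

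The inhibitory and activating receptors were compared through their changes against the scramble array of the same day, since the levels of different probe sets cannot be set against each other. FCGR2B exceeded FCER1G by 2.72 log2 at day 2 and 2.38 at day 5 in shCDK2 #10, and by 1.82 and 2.66 in the shCDK2 #3 arrays. In shCDK2 #1 the difference was -0.15 and 0.25. Over FCGR1A the FCGR2B excess was 3.52 and 4.27 in shCDK2 #10, 2.34 and 3.23 in shCDK2 #3, and 0.54 and 0.38 in shCDK2 #1. Over the brightest probe set shared by FCGR2A and FCGR2C it was 1.69 and 3.18 in shCDK2 #10, 1.34 and 2.55 in shCDK2 #3, and -0.23 and 0.27 in shCDK2 #1. These differences hold for the brightest FCGR2B probe set. On the dimmest, the shCDK2 #3 changes were 0.35 and 1.97 and the shCDK2 #10 changes 1.69 and 1.99, below those of FCER1G (0.49 and 2.07, and 2.10 and 3.57) in all 4 arrays. FCGR2B was also selected for its large change, so its place above the others is a description. CD300A behaved otherwise: its change exceeded that of FCER1G by 1.52 at day 2 in shCDK2 #10 and fell short by -1.47 at day 5. In shCDK2 #3 that difference was 1.32 at day 2, in the array whose CDK2 signal was near scramble, and -0.05 at day 5. FCGR2B exceeded CD300A by 1.20 and 3.85 in shCDK2 #10. These differences have no test, because probe sets respond with different slopes and each value rests on 2 arrays.

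**Figure D3:**
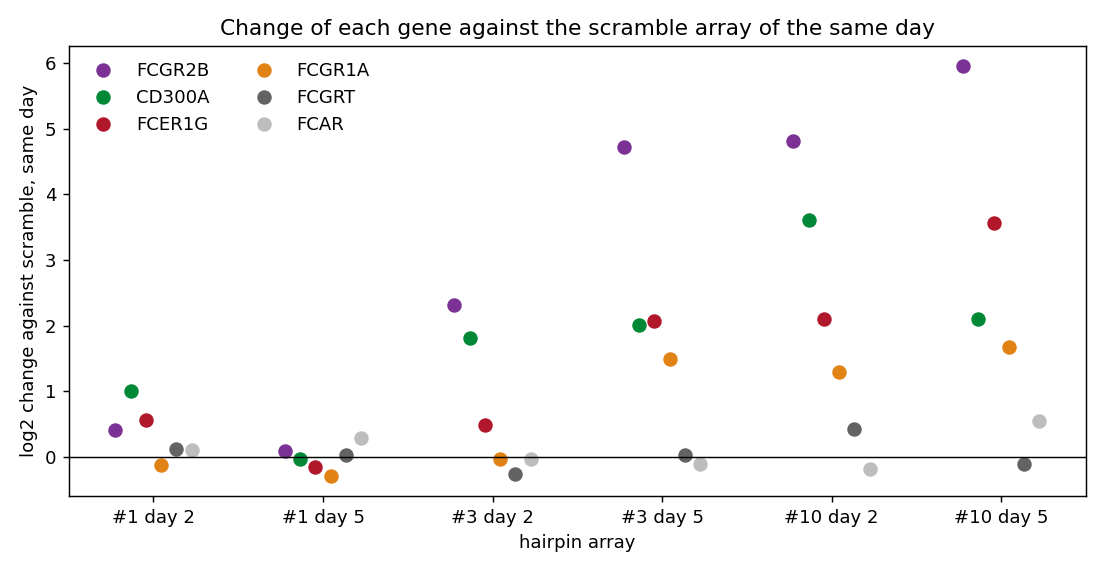
Log2 change against the scramble array of the same day (vertical axis) for each hairpin array (horizontal axis), 1 point per gene and array, with a line at 0. FCGR2B, selected for its change and drawn by its brightest probe set, lies highest in the 4 arrays of shCDK2 #3 and #10 (its dimmest probe set lies below FCER1G there), and CD300A and FCER1G exchange places between the days of shCDK2 #10.

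The days were compared within the hairpins. The change from day 2 to day 5, averaged over the 3 hairpins, was 1.26 for FCGR2B (SE 1.65), 0.91 for FCER1G (SE 0.91), 0.65 for FCGR1A (SE 0.59) and -0.12 for CD300A (SE 0.79), with limma adjusted p of 1.00 for each. With 1 array left out at a time, the value ran from 0.08 to 3.01 for FCGR2B, 0.04 to 1.90 for FCER1G and 0.29 to 1.28 for FCGR1A. No gene of the set passed, and 0% of all tested genes were called (260 at an unadjusted limma p under 0.05). None of the 5 was higher at day 5 in all 3 hairpins, which 11.1% of tested genes were. FCGR2B was higher at day 5 in shCDK2 #3 and #10 but was 6.34 and then 6.21 in shCDK2 #1. With the 3 hairpins averaged against scramble, 0 of the tested members were called at day 2 and 0 at day 5 (0 unadjusted in each), with 0% of all genes called at either day. The average change at day 5 was 1.82 for FCER1G (95% interval -1.20 to 4.85) and 1.36 for CD300A (95% interval -1.26 to 3.98). These wide intervals hold the spread between hairpins, of which shCDK2 #1 lay near scramble.

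The partners and relatives of the receptors were read from lists. Among other Fc receptor genes, 9 of 19 were tested and 1 was called higher in shCDK2 #10, none lower. Over all tested genes 1.69% were called higher there. The median change of the list was -0.04, against -0.09 over all tested genes. The share of positive changes over all tested genes was not worked out, so counts of positive changes below have no background. The called gene was FCRLB, an intracellular Fc receptor-like protein. At day 2 its signal was 5.74 log2 in scramble, 6.18 in shCDK2 #1, 6.30 in the array labelled shCDK2 #3 and 7.90 in shCDK2 #10. The day 5 values were 5.88 in the array labelled scramble, 5.95, 6.65 and 7.73. The shCDK2 #10 arrays lay above all others, and the fitted change was 2.00 (SE 0.21, limma adjusted p 0.013). This call was lost without either scramble array. FCGR3A, the activating receptor CD16a, was too dim to be tested and was named after its values were seen. It read 2.92 to 3.32 in 7 arrays and 6.46 in shCDK2 #10 at day 5.

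Of the ITAM adaptors and activating signalling genes, 20 of 21 were tested. In shCDK2 #10, 1 was called higher and none lower, against 1.69% of all tested genes called higher. Of the changes 14 were positive, with a median of 0.35 against -0.09 over all tested genes. The called gene was GAB2, an adaptor downstream of Fc receptors. It read 7.50 in scramble, 7.24 in shCDK2 #1, 8.42 in the array labelled shCDK2 #3 and 8.34 in shCDK2 #10 at day 2, with a fitted shCDK2 #10 change of 1.20 (SE 0.22, limma adjusted p 0.046). The ITAM adaptor TYROBP (DAP12), named after its values were seen, had a change of 1.51 (limma adjusted p 0.124). SYK, the kinase that binds phosphorylated ITAMs and also named afterwards, had -0.04 (limma adjusted p 0.962).

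Of the ITIM effectors and adaptors, 8 of 10 were tested, with a median change of -0.03 in shCDK2 #10. There 1 was called higher and none lower, against 1.69% of all tested genes called higher. The called gene was INPP5D, whose product SHIP1 is the lipid phosphatase that binds the FCGR2B motif. INPP5D read 10.42 in scramble, 10.51 in shCDK2 #1, 11.70 in the array labelled shCDK2 #3 and 11.73 in shCDK2 #10 at day 2. At day 5 it read 10.41 in the array labelled scramble, 10.34, 11.33 and 11.26. All 4 shCDK2 #3 and #10 arrays lay above the other 4, and the fitted shCDK2 #10 change was 1.08 (SE 0.19, limma adjusted p 0.046). The calls of GAB2 and INPP5D were lost without either scramble array, without shCDK2 #10 at day 5, under median centring, with probe sets averaged per gene and with every probe set as its own feature. That of INPP5D was also lost without shCDK2 #10 at day 2 and without either array of shCDK2 #1. PTPN6, the phosphatase SHP-1 that binds CD300A, had a change of 0.15 (limma adjusted p 0.702), and was named after its values were seen.

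Of 23 other inhibitory receptors of myeloid cells, 13 were tested and 0 called in shCDK2 #10, against 1.69% of all tested genes called higher. The list had 8 positive changes and a median of 0.59. The 4 with the largest mean change over shCDK2 #3 and #10 were SIGLEC7 (1.54), PILRA (1.35), SIGLEC5 (0.68) and SIGLEC10 (0.64). Their fitted shCDK2 #10 changes were 2.64 for SIGLEC7 (limma adjusted p 0.075), 1.80 for PILRA (limma adjusted p 0.119), 1.18 for SIGLEC5 (limma adjusted p 0.108) and 1.17 for SIGLEC10 (limma adjusted p 0.242). Their side of the threshold depended on the shCDK2 #3 arrays in the fit. Leaving out either of these arrays gives the same spread for shCDK2 #10, so it does not single out the day 2 array. Of 21 activating paired receptors, 16 were tested and 0 called, with 11 positive and a median of 0.09. TREM1, an amplifier of myeloid inflammation, had the largest fitted shCDK2 #10 change there (2.35, limma adjusted p 0.101), followed by SIGLEC14 (1.64), CLEC4E (1.07) and OSCAR (1.01), none past the threshold. The side of the threshold of SIGLEC14 depended on the shCDK2 #3 arrays in the same way. Of 7 partners of FCGRT in antibody transport, 6 were tested and 0 called, with a median of 0.01. The 4 with the largest mean change over shCDK2 #3 and #10 were B2M (0.37), JCHAIN (-0.36), TRIM21 (0.21) and RAB4A (0.19). B2M, the light chain of the neonatal receptor, had a shCDK2 #10 change of 0.52 (limma adjusted p 0.157). In shCDK2 #3 and #1, 0 genes of any list were called, against 0.0311% and 0% of all tested genes called higher.

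**Figure D4:**
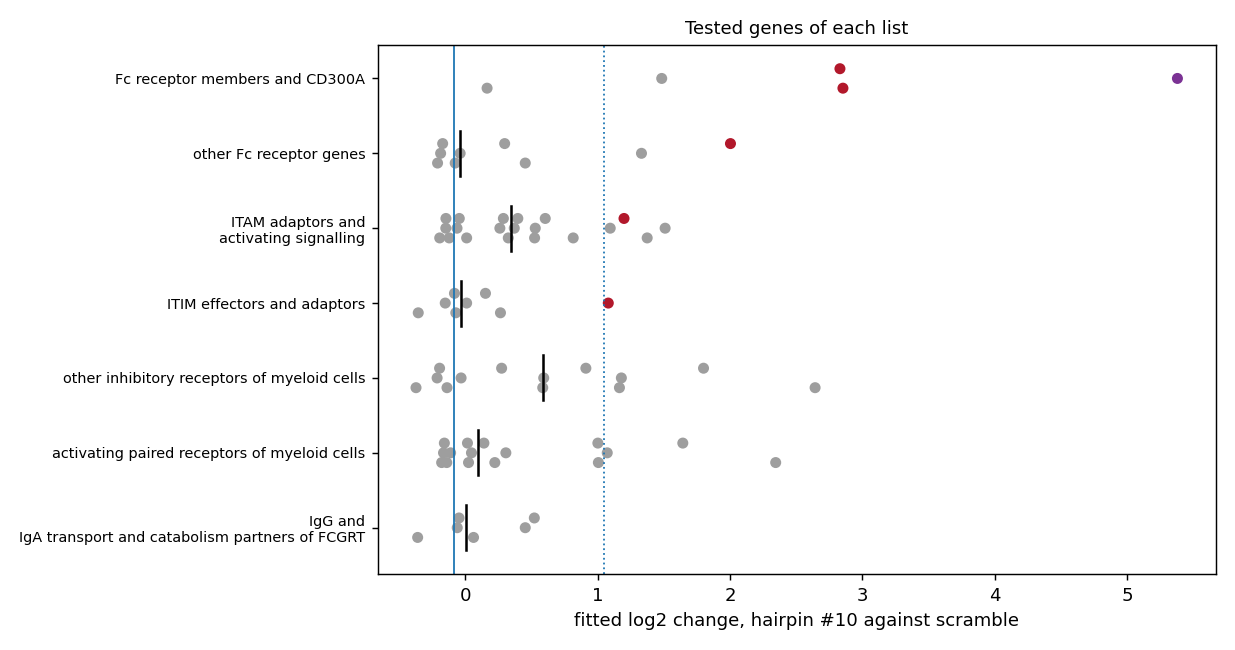
Fitted log2 change of shCDK2 #10 against scramble (horizontal axis) for the tested genes of each list (vertical axis), 1 point per gene. Red points passed an adjusted p of 0.05, grey ones did not, purple is FCGR2B (not tested), black bars are list medians, and the solid and dotted blue lines are the median (-0.09) and 95th percentile (1.05) of all tested genes.

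The tested genes whose signal over the 8 arrays was most like that of FCGR2B, by Pearson r and leaving out the set itself, were OCEL1 (0.994), TMSB4X (0.992), LACTB (0.991), OTUD1 (0.991) and BTG1 (0.988). BTG1, an antiproliferative gene, read 9.33 in scramble, 9.70 in shCDK2 #1, 10.42 in the array labelled shCDK2 #3 and 11.34 in shCDK2 #10 at day 2. OCEL1 moved far less, from 6.87 to 7.80 over all arrays, so a high r here speaks of order and spacing and not of size. Most like CD300A were SMIM14 (0.989), TXNIP (0.988), GPR146 (0.986), MRC2 (0.985) and USP3 (0.984). TXNIP, an inhibitor of thioredoxin and glucose uptake, read 9.26, 10.06, 10.82 and 12.60 at day 2 in the same order of constructs. These r values describe 8 arrays that share constructs and days.

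The genes beside FCGR2B on the chromosome were also read, a choice made after values were seen. Of the 6 protein-coding neighbours on each side, 11 had a probe set of their own. FCRLB, to the right of FCGR2B, changed by 2.15 and 1.85 at day 2 and day 5 in shCDK2 #10, and by 0.56 and 0.77 in shCDK2 #3. HSPA6, a heat shock protein, changed by 0.96 and 0.79 in shCDK2 #10. FCRLA, which lies between FCGR2B and FCRLB, changed by 0.48 and 0.12. Among these 11 the largest value was 3.30, for FCGR3A in shCDK2 #10 at day 5, against 5.95 for FCGR2B in the same array. FCGR2A, also beside FCGR2B, reached 3.60 there through a probe set shared with FCGR2C.

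**Figure D5:**
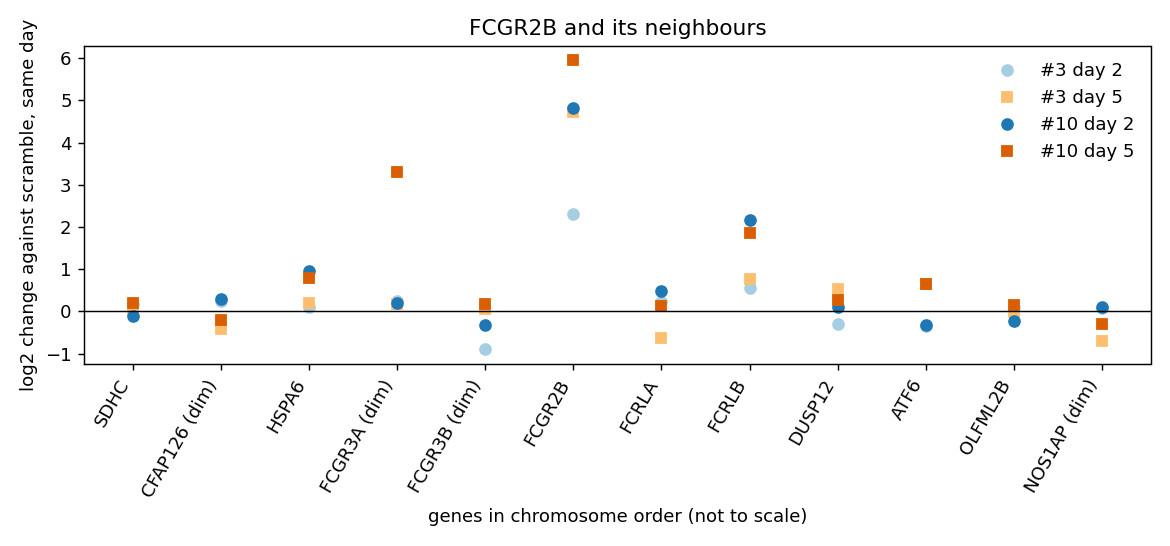
Log2 change against the scramble array of the same day (vertical axis) for FCGR2B and 11 neighbouring genes in chromosome order (horizontal axis, not to scale), for the shCDK2 #3 and #10 arrays. Each point is 1 array and dim marks genes under the filter value; FCGR2B stands above every neighbour shown in each of the 4 arrays.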

How the data were processed

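The authors deposited log2 signals per probe set for 8 Affymetrix arrays; that they are log2 was inferred from their range. Partek is named per the submitters' processing notes, while neither its version nor a normalization method was given in the sources used here. Array medians lay between 6.30 and 6.43 log2. Precision is limited by the number of arrays. Of 49395 probe sets, 44994 had 1 gene in the array annotation and 1832 several. A gene was tested where its mean passed 5.83 log2, the 40th percentile over probe set means.

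Tests came from limma (version 3.58.1, R 4.3.3), two-sided and moderated by empirical Bayes, with Benjamini-Hochberg adjusted p under 0.05 over 12845 genes. For each hairpin against scramble the model held a construct term and a day term, leaving 3 residual degrees of freedom, so the 2 days served as the repeats of a construct. These comparisons share the scramble arrays. Days were compared with a mean per arm and day (4 residual degrees of freedom). The hairpins were the repeats, and the lone scramble array was assumed to vary as they do. The fit was run on simulated data in which arrays vary independently. Such data cannot check whether days may serve as repeats or what a lone scramble array does.

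The members and lists were chosen with earlier results of these data known. Named from each list were the genes that passed and otherwise up to 4 with the largest mean change over shCDK2 #3 and #10; other names are given as chosen after their values were seen. Alternatives were quantile normalization, median centring, the mean over all probe sets of a gene, no filter, a trend in the moderation, leaving out arrays or constructs, a construct block for the days and, added after the data were seen, every probe set as its own feature. Promoter windows came from RefSeq. Protein sequences were not analysed here.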

Additional observations from a re-analysis of the deposited data

How the results depend on the processing

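With 1 array per construct and day, each call rests on 2 arrays per construct, and leaving out an array of a construct leaves the other with no spread of its own, which is assumed to be that of the rest. Members called higher in shCDK2 #10 were 2, and 1 under median centring, 1 with every probe set as its own feature and 0 to 3 with arrays or constructs left out; for shCDK2 #10 against shCDK2 #1 the count was 0, and 0 to 3 with them left out. FCGR2B described for shCDK2 #10 was 4.67 with the mean of its probe sets, and for shCDK2 #10 against shCDK2 #1 it was 4.37 in that setting and 4.38 to 5.88 with arrays left out. For shCDK2 #3 it was 2.45 to 4.59 with arrays left out. FCGRT changed sign without having been called: for shCDK2 #3 it was 0.25 with the mean of probe sets and -0.37 to 0.14 with arrays left out, and for shCDK2 #10 it was -0.13 to 0.47. Under median centring, the mean of probe sets or every probe set as its own feature, 0 genes of the ITAM list and 0 of the ITIM list were called in shCDK2 #10. The other Fc receptor list had 0 called in shCDK2 #10 against shCDK2 #1 under median centring, and a trend in the moderation called 1 partner of FCGRT (B2M) in shCDK2 #10. With arrays or constructs left out, the counts in shCDK2 #10 ran from 0 to 2 for other Fc receptors, 0 to 3 for the ITAM list, 0 to 1 for the ITIM list, 0 to 4 for other inhibitory receptors and 0 to 1 for activating ones. For shCDK2 #10 against shCDK2 #1 they ran from 0 to 2, 0 to 2, 0 to 1, 0 to 3 and 0 to 1 in the same order, and for shCDK2 #3 from 0 to 1 for other Fc receptors and 0 to 1 for other inhibitory receptors. The share of all tested genes called was not worked out for these settings, and a refit changes the pooled spread of every gene. These counts therefore cannot tell a shift in the listed genes from a shift in the calls over all genes. The cause of these changes was not tested. A further 318 list counts and 95 member counts under alternatives, the construct block for the days among them, equalled the main count or lay close to it. Close takes in the rise from 2 to 3 members in shCDK2 #10 without shCDK2 #3 in the fit. A further 234 member changes kept their direction and side of the threshold. Among these, the FCGR2B changes that were not tested kept their direction and moved by less than their SE. A further 6 FCGR2B changes, given above for the mean of probe sets or arrays left out, kept their direction but moved by more. Without a scramble array, its day has no comparison of hairpins with scramble, so no value is given there.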
